A study of Mus musculus with 20 samples.

Results

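The phagocyte NADPH oxidase was followed through 5 of its genes, Cybb, Cyba, Ncf1, Ncf4 and Rac2, which were chosen by name as parts of one enzyme complex. All 5 were among the 15855 genes of the scRNA-seq table of cultured cells and among the 15333 genes of the table of tumor cells. The study asked whether BM B-cell precursors can become macrophages in cancer, and it compared macrophages generated from BM B cells (B-MF) with macrophages generated from BM monocytes (Mo-MF) and with tumor-associated macrophages (TAM). Sorted B cells of BM from naive mice, or BM monocytes, were cultured for a week in medium conditioned by 4T1.2 cells, a mouse breast cancer line, and gave 2 scRNA-seq libraries each. TAM were sorted from 4 mice with subcutaneous 4T1.2 tumors, grown by the methods in BALB/cJ mice, and gave 4 libraries. ATAC-seq, which cuts open chromatin with the Tn5 transposase, was done on cells sorted with or without CSF1R from BM and from spleen, with 3 libraries for each tissue and sort. The labels call these cells macrophages, and the study's text describes them as B-cell precursors of naive mice. The mice were young females, and the strain of the mice behind the cultures and the ATAC-seq libraries is not given for the single libraries.

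The oxidase moves electrons from NADPH across a membrane to oxygen and so makes superoxide, the first product of the respiratory burst with which neutrophils and macrophages attack engulfed microbes. Cybb encodes gp91phox (NOX2), the subunit that carries the electrons, and Cyba encodes p22phox, its partner in the membrane. Ncf1 (p47phox) and Ncf4 (p40phox) encode cytosolic subunits that join the membrane part after activation, and Rac2 encodes the GTPase that completes the complex in blood cells.

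In GRCm38 (mm10), Cybb lies at X:9435252-9469324, Cyba at chr8:122424776-122432930 and Ncf1 at chr5:134220260-134229625, all on the minus strand. Ncf4 lies at chr15:78244801-78262580 on the plus strand, and Rac2 at chr15:78559167-78572783 on the minus strand, by the protein-coding transcripts of GENCODE vM21. The 3′ end of Ncf1 shares 4096 bases with Gtf2ird2, a gene on the other strand. Gtf2ird2 had a mean of 0.0486 to 0.0619 corrected counts per cell in the cultured libraries, where Ncf1 had 1.88 to 2.12, and whether the counting used strand is not given in the sources used here. Cyba lies inside Gm20388, an annotated gene on the other strand.

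The sequences below are those at which the chromatin of the 2 tissues is described further on. They are the 250 bases before the start of Cybb, the 250 bases before the start of Ncf1, and 300 bases around the median summit of an ATAC-seq peak whose summit lay 3155 bases upstream of the start of Ncf1, outside every annotated exon. The promoters are RefSeq sequences of GRCm38.p6 and the peak was read from the same build. All are printed 5′ to 3′ on the minus strand, with the letters CCAAT, or ATTGG where CCAAT is on the other strand, in capitals. The first covers X:9469325-9469574, the second chr5:134229626-134229875 and the third chr5:134232630-134232929.
Cybb promoter: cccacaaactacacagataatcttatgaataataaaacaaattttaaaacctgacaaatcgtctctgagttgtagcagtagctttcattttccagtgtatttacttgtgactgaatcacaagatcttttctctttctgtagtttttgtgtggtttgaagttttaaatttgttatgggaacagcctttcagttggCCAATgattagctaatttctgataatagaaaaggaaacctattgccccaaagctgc
Ncf1 promoter: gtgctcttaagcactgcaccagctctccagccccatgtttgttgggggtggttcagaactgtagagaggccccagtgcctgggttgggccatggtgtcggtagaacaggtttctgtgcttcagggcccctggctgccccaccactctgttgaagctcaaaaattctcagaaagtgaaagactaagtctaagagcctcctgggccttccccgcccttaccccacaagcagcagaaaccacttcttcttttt
Ncf1 upstream peak: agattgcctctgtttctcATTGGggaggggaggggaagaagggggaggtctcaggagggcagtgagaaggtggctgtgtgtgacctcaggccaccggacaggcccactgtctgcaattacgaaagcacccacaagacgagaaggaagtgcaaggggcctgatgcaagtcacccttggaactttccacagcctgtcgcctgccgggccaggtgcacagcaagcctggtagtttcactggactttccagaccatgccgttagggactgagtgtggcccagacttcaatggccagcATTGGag
Of the letters searched on both strands, GAGGAA and CCAAT, only CCAAT was found in these stretches. It stood 56 to 52 bases upstream of the start of Cybb, and at 2 places in the upstream peak of Ncf1. The 250 bases before Ncf1 held neither. Among 32851 mouse promoters of that length 33.8% held CCAAT and 23.3% held GAGGAA, and among windows of 300 bases the shares were 37.4% and 28.3%. RefSeq promoters were matched for 3 of the 5 genes, Cybb, Cyba and Ncf1.

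The 2 B-MF libraries held 5237 and 5326 cells, the 2 Mo-MF libraries 4846 and 5389, and the tumor libraries, numbered 2 to 5 in the table, 2318 to 3180. Values are mean corrected counts per cell, that is, transcript counts which the authors brought to a shared depth within each table, so levels were not compared between the culture and the tumor table. Cells were divided by the summed corrected count of S100a8 and S100a9, calcium-binding proteins abundant in neutrophils. Cells at or above 100 in culture or 300 in tumor were called neutrophil-like, and the cells below were called other cells. That class held 3 and 0 cells of the B-MF libraries, 9.86% and 8.28% of the Mo-MF libraries, and 34.9% to 55.4% of the tumor libraries. The name was checked on the 3 neutrophil markers that did not define the class, Csf3r, Retnlg and Cxcr2, whose summed level was 63.8 to 64.3 in neutrophil-like and 1.72 in other Mo-MF cells, and 49.9 to 64.5 and 2.62 to 6.67 in the same classes of the tumor. Summed macrophage markers were 143 to 147 in B-MF, 94.8 to 96.7 in other and 55.2 to 58.8 in neutrophil-like Mo-MF cells, and 9.76 to 24.6 in other and 5.13 to 8.47 in neutrophil-like tumor cells. Neutrophil-like Mo-MF cells thus held macrophage markers too, with a Csf1r count in 95.5% of them, and the cells sorted as TAM included many with high neutrophil markers. Libraries of one table shared 45 cell barcodes in culture and 13 in tumor.

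All 5 genes were expressed in B-MF at levels close to those in Mo-MF. Among cells below the S100 limit, Ncf4 had a count in 99.0% to 99.1% of the cells of each culture library and Ncf1, the lowest of the 5, in 75.8% to 81.4%. Ncf1 was 1.23 times as high in B-MF as in Mo-MF and Cyba was lower, at 0.870 of the Mo-MF level, and the other 3 genes did not pass the test.

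Cybb had means of 6.01 and 6.14 in the other cells of B-MF replicates 1 and 2, and of 6.12 and 5.89 in Mo-MF. The ranges overlapped, and the log2 difference of B-MF minus Mo-MF was 0.02, with a 95% interval of -0.10 to 0.13 (limma, adjusted p = 0.832). Cyba had 48.4 and 47.5 in B-MF, against 54.9 and 55.4 in Mo-MF. Both B-MF libraries were below both Mo-MF libraries, and Cyba was lower in B-MF by a log2 difference of -0.20 ± 0.05 (SE, limma, adjusted p = 0.0136).

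Ncf1, whose product organizes the cytosolic part of the enzyme, had 2.12 and 2.10 in B-MF, against 1.72 and 1.67 in Mo-MF. The groups did not overlap, and Ncf1 was higher in B-MF by 0.30 ± 0.05 on the log2 scale (SE, limma, adjusted p = 0.00219). Ncf4 had 6.55 and 6.25 in B-MF, whereas Mo-MF had 5.83 and 5.77. The log2 difference was 0.14, with an interval of 0.02 to 0.26, and did not pass after adjustment (limma, adjusted p = 0.0647). It passed in 6 of 12 alternatives, with adjusted p (limma) of 9.66e-07 to 0.392 over the 12. These were a pseudocount of 1, cells scaled to the same total (limma, adjusted p = 0.0169), the deposited ln values, leaving out either B-MF library, where 1 library stands for B-MF, and the replicate number as a block (limma, adjusted p = 0.0492), though no source says that equal numbers mark a shared culture.

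Rac2 had 4.38 and 4.32 in B-MF, close to the 4.22 and 4.22 of Mo-MF. The log2 difference was 0.04, with an interval of -0.07 to 0.15 (limma, adjusted p = 0.528). So 1 of the 5 genes was higher and 1 lower in B-MF, where 21% of the 8602 genes tested were higher and 17% lower. The call for Ncf1 held in each of 12 alternatives, with adjusted p (limma) of at most 0.0238. In 4 of them 1 library was left out, and the lone library of its group was assumed to vary like the others. The call for Cyba was lost without Mo-MF replicate 1 (limma, adjusted p = 0.130) and without Mo-MF replicate 2 (limma, adjusted p = 0.157), where 1 library stands for Mo-MF.

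Over all cells, the neutrophil-like cells of Mo-MF included, the differences of Rac2 and Ncf1 had other sizes. Rac2 had 4.38 and 4.32 in B-MF, below the 5.03 and 4.89 of Mo-MF, and was lower in B-MF by a log2 difference of -0.19 ± 0.05 (SE, limma, adjusted p = 0.0200). Ncf1 had 2.12 and 2.10 in B-MF, against 1.98 and 1.88 in the Mo-MF libraries, a difference of 0.12 that did not pass (limma, adjusted p = 0.0983), though it passed in 4 of 10 alternatives, with adjusted p (limma) of 1.25e-06 to 0.616 over the 10. Cyba, with 53.2 and 54.1 in Mo-MF, was again lower in B-MF, by -0.16 ± 0.05 (SE, limma, adjusted p = 0.0328).

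Cybb differed by -0.04 (limma, adjusted p = 0.606) and Ncf4 by 0.05 (limma, adjusted p = 0.462) over all cells. With the mean of the deposited ln values Cybb was higher in B-MF, by 0.10 (limma, adjusted p = 5.68e-05). Thus 0 of the 5 genes were higher and 2 were lower, against 22.6% and 16.9% of 8633 genes. Neither call was made without Mo-MF replicate 1 or without Mo-MF replicate 2, with adjusted p (limma) of 0.237 and 0.315 for Cyba and of 0.264 and 0.133 for Rac2. The call for Cyba was also lost with a pseudocount of 0.01 (limma, adjusted p = 0.0622), and that for Rac2 with the mean of the deposited ln values, at -0.048 (limma, adjusted p = 0.0797). Neutrophil markers moved with this comparison, since their summed level over all cells was 0.724 to 1.06 in B-MF and 117 to 146 in Mo-MF, and the values of Rac2 and Ncf1 below the limit show the size of the differences without those cells. No source says that the replicates are separate cultures, so the p-values measure the spread between these libraries, which may be technical.

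**Figure D1:**
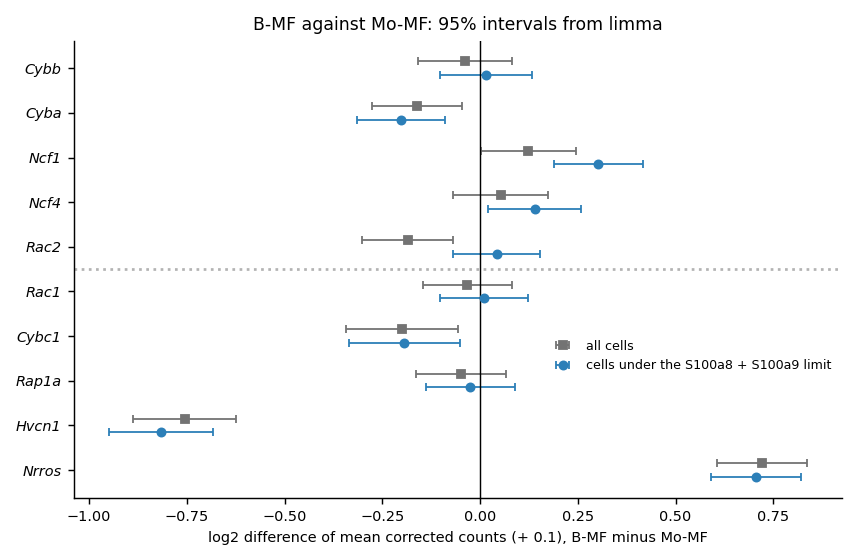
Log2 difference of B-MF minus Mo-MF for the 5 oxidase genes and 5 other parts and regulators of the complex, with 95% intervals from limma, for all cells and for cells below the S100 limit. Ncf1 lies above 0 and Cyba below 0 below the limit, and the point of Rac2 moves from -0.19 over all cells to 0.04 below the limit.

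The genes that work with the oxidase were split in direction, as were all genes tested below the limit, of which 21% were higher and 17% lower. Of 5 other parts and regulators of the complex, 1 was higher and 2 were lower in B-MF below the limit. Nrros, whose product lowers the amount of gp91phox in phagocytes, was higher by 0.71 (limma, adjusted p = 2.71e-05), with means of 4.39 and 4.25 in B-MF against 2.64 and 2.58 in Mo-MF. Hvcn1, the proton channel that balances the charge moved by the enzyme, was lower by -0.82 (limma, adjusted p = 2.60e-05), with 0.778 and 0.712 in B-MF against 1.41 and 1.36 in Mo-MF. Cybc1, a chaperone of the membrane part, was lower by -0.19 (limma, adjusted p = 0.0402).

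Of 6 tested genes for exchange factors and binding proteins of Rac, 2 were higher and 2 lower, led by Arhgdib, which holds Rac in the cytosol, at 0.44, and by the exchange factor Vav1 at -0.24. Of 6 tested kinases that phosphorylate the cytosolic subunits, 1 was higher and 2 were lower, with Prkcd at -0.48 and Prkcb at -0.37. Of 5 tested genes of the routes that supply NADPH, 2 were higher and 1 lower. The higher were Taldo1 at 0.26 and Tkt at 0.19, whose enzymes rearrange sugars in the pentose phosphate pathway and make no NADPH themselves. The NADPH-making enzymes of that pathway, G6pdx at -0.02 (limma, adjusted p = 0.816) and Pgd at 0.13 (limma, adjusted p = 0.0665), did not pass. Of 3 tested enzymes that remove superoxide or peroxide, 2 were higher, Sod2 at 0.39 and Cat at 0.21, and 1 was lower. The medians of these lists ranged from -0.05 to 0.21, beside 0.01 over all genes. Of 7 other NADPH oxidase genes, 0 reached the level needed for the test.

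In Mo-MF cultures, the neutrophil-like cells held more of 4 oxidase transcripts than the other cells and less of Cyba. The gap was largest for Rac2 and Ncf1. Since the classes were cut from 2 other genes of the same cells, these differences are descriptions with no test.

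Cybb had 8.84 and 8.28 in the neutrophil-like cells of Mo-MF replicates 1 and 2, against 6.12 and 5.89 in the other cells. Cyba had 37.9 and 39.0 against 54.9 and 55.4, the one gene of the 5 that was lower in the neutrophil-like cells of both libraries. Ncf1 had 4.41 and 4.19 against 1.72 and 1.67. The log2 difference of Ncf1 was 1.30 ± 0.02 (SD, n = 2), far above the spread between the libraries.

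Ncf4 had 10.1 and 9.56 in the neutrophil-like cells, against 5.83 and 5.77. Rac2 had 12.5 and 12.3 against 4.22 and 4.22, a log2 difference of 1.53 ± 0.02 (SD, n = 2). Of all 8492 genes compared, 25.4% were higher and 68.5% were lower in the neutrophil-like cells of both libraries. By at least 1 on the log2 scale 5.62% were higher, as Ncf1 and Rac2 were. Without the cells of 1000 or more summed S100a8 and S100a9 counts, Ncf1 was at 0.74 and Rac2 at 0.91, both under 1. None of the 5 was lower by at least 1, as 1.75% of genes were. The median over all genes was -0.29. Rac1, the form of Rac found in most cell types, had 6.65 and 6.66 in these cells, and Rac2 over Rac1 was 1.87 and 1.84, against 0.842 and 0.845 in the other cells.

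In the tumor, 4 of the genes differed in the same direction as in Mo-MF and Cybb in the opposite one, a difference between culture and tumor that was not tested. Without the Mo-MF cells of 1000 or more summed S100a8 and S100a9 counts Cybb was lower in both, at -0.23 in Mo-MF. The neutrophil-like tumor cells held less Cybb and Cyba, and more Ncf1, Ncf4 and Rac2, than the other cells of their own library, in 4 of 4 libraries for each gene. Cybb was 3.18 times as high in the other cells as in the neutrophil-like cells.

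The 4 other-cell means of Cybb in libraries 2, 3, 4 and 5 were 4.46, 4.21, 4.28 and 4.36, and those of the neutrophil-like cells were 1.19, 1.43, 1.36 and 1.20. The classes lay far apart in every library, with a log2 difference of -1.67 ± 0.16 (SD, n = 4), and 4.20% of genes had a lower one. It was the 1 gene of the 5 that was lower by at least 1, as 23.5% of genes were, and 0 of the 5 were higher by at least 1, as 2.88% were. A Cybb count was present in 33.8% to 37.8% of neutrophil-like cells and in 68.3% to 78.1% of other cells. Thinned to 5000 counts per cell, with 0 cells left out, the shares were 28.2% to 31.5% and 62.3% to 70.7%. Among 86 other cells with T-cell or NK-cell markers, a mean of 15.8% over libraries had a count. Their median total was 8373.5, against 7566 in the neutrophil-like cells. These cells also held other markers, with library sums of 0 to 33.2 for fibroblast, 2.76 to 6.73 for dendritic-cell and 1.17 to 5.34 for monocyte markers, so they are not a clean background.

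Cyba had 9.98, 8.78, 9.29 and 8.96 in the other cells and 7.23, 7.42, 7.80 and 7.71 in the neutrophil-like cells. The classes did not overlap, and the log2 difference was -0.29 ± 0.11 (SD, n = 4). Lower values were the rule in this comparison, since 73% of 5831 genes were lower in the neutrophil-like cells of all 4 libraries, 17.5% were higher in all 4, and the median over all genes was -0.53. The neutrophil-like cells had fewer detected genes, with library medians of 1363 to 1427 against 2274 to 2444, and the part of this in the differences was not tested.

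Ncf1 had 0.840, 1.08, 1.04 and 1.03 in the other cells and 1.79, 1.67, 1.74 and 1.76 in the neutrophil-like cells, a log2 difference of 0.75 ± 0.18 (SD, n = 4). Ncf4 had 3.49, 3.83, 3.20 and 3.54 against 4.28, 4.25, 3.93 and 4.10, a smaller difference of 0.23 ± 0.07 (SD, n = 4). Rac2 had 2.35, 2.44, 2.42 and 2.51 against 4.01, 4.42, 4.16 and 4.16, with a difference of 0.76 ± 0.05 (SD, n = 4). All 3 genes were higher in the neutrophil-like cells of each library, as 17.5% of all genes were. Rac2 over Rac1 was 0.842 to 1.07 in neutrophil-like cells and 0.537 to 0.616 in other cells.

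**Figure D2:**
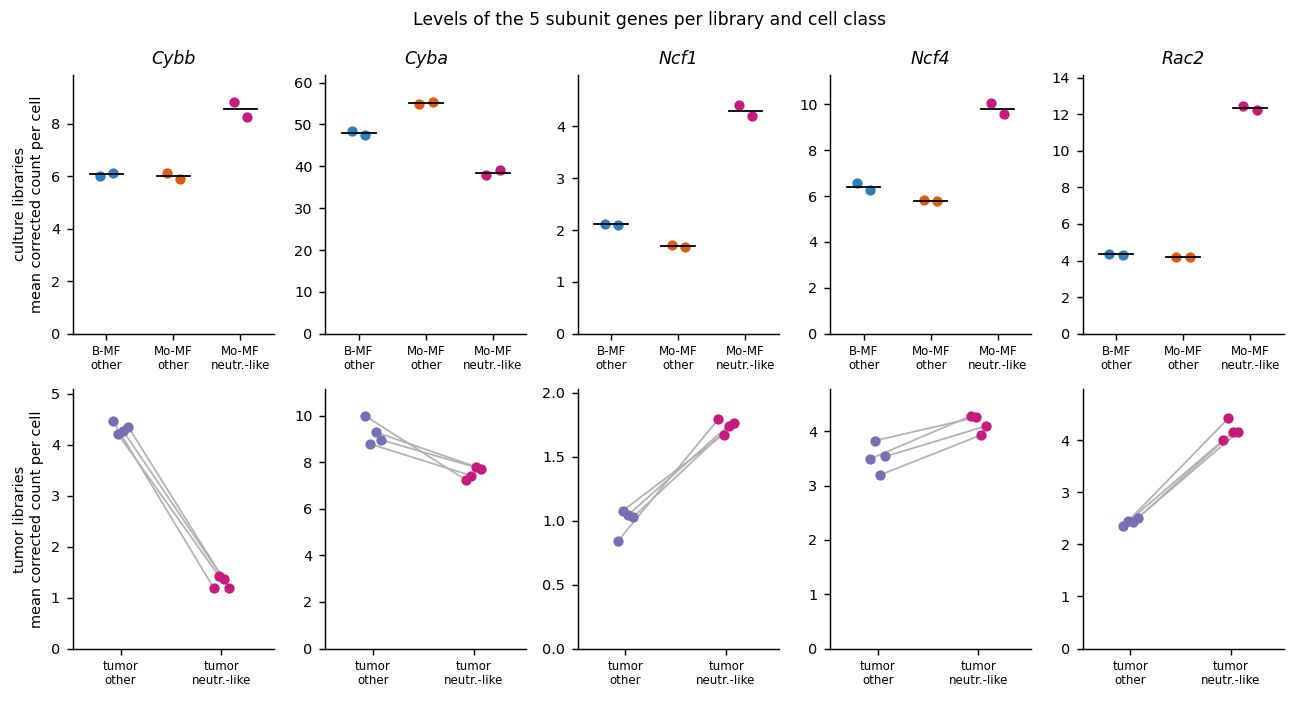
Mean corrected count per cell of the 5 genes in each library, by class (neutrophil-like and other cells), for the culture and the tumor table, where each point is 1 library, black bars are means and gray lines join the classes of one tumor library. In the tumor panels the points of Cybb lie between 1.19 and 1.43 in neutrophil-like cells and between 4.21 and 4.46 in other cells, while those of Rac2 lie in the opposite order.

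The values just outside and just inside the limits are given as a description. In tumor cells with 200 to 300 counts of S100a8 and S100a9, just outside the class, Cybb had a mean over libraries of 2.63, and in those with 300 to 400, just inside, 2.02. The mean of Cybb was 4.89 in cells under 50 and 1.13 in cells of 1000 and above. Rac2, by contrast, had 2.52 just outside and 2.50 just inside, stayed between 2.34 and 2.58 up to 600, and was 5.58 at 1000 and above. Just outside and just inside, Cyba had 8.02 and 7.35, Ncf1 1.52 and 1.72, and Ncf4 3.998 and 3.95.

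In Mo-MF, Cybb had 6.76 in the cells of 50 to 100 counts, 5.22 in those of 100 to 150, and 4.53 in those of 600 to 1000. At 1000 and above it reached 13.3, with 12.1 and 14.5 in the 2 libraries. The direction of Cybb in Mo-MF was thus set by the cells of 1000 and above, since without them the difference of neutrophil-like minus other cells was -0.23. Rac2 had 4.19 in Mo-MF cells under 10, 6.22 from 100 to 150 and 18.3 at 1000 and above, and Ncf1 had 1.67, 2.59 and 6.22 in the same ranges. Cyba went the other way, from 55.3 under 10 to 35.0 at 1000 and above.

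**Figure D3:**
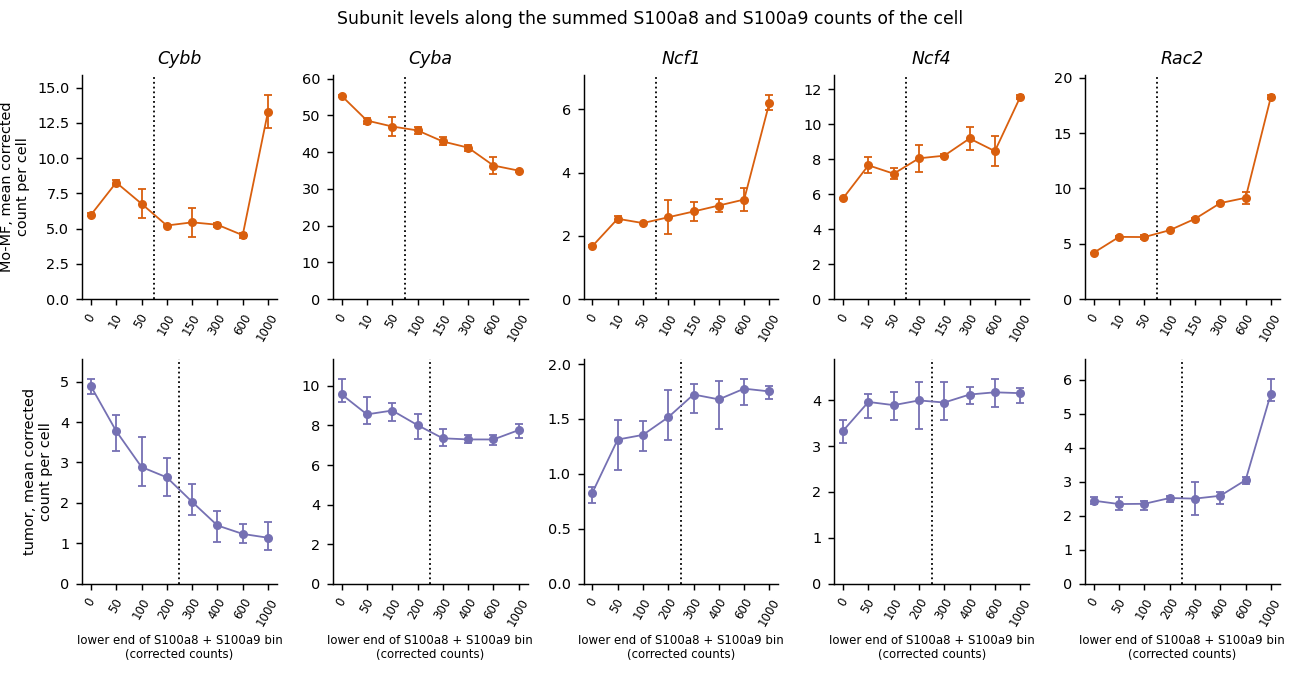
Mean corrected count per cell of each gene against the summed corrected count of S100a8 and S100a9, in bins, for Mo-MF and tumor libraries, with points for the mean over libraries, bars from the lowest to the highest library and a dotted line at the limit. Tumor Cybb goes down from 4.89 to 1.13 along the axis, whereas Mo-MF Cybb is 4.53 in the bin from 600 to 1000 and 13.3 in the last bin.

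The neutrophil-like cells of both tables were further divided by Ngp, Camp, Ltf and Lcn2, genes of granule proteins that neutrophil precursors make, at a summed count of 10 that was chosen after the values were seen. In Mo-MF, 585 cells were at or above it and 339 below. Cybb was 10.9 in the cells with granule transcripts and 4.51 in those with few, Ncf1 5.19 and 2.78, and Rac2 15.04 and 7.75. Ncf4 had 10.8 and 8.06, and Cyba 37.6 and 39.96. Other markers moved with this split, since macrophage markers summed to 48.6 to 49.8 with granule transcripts and 66.9 to 73.9 with few. Neutrophil markers, S100a8 and S100a9 included, summed to 1943 to 2016 and to 430. Their part in these differences was not tested. In the tumor, 2079 cells had granule transcripts, and 2951 had few.

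Cybb remained low in both tumor divisions, at 1.64 with granule transcripts and 1.04 with few. Rac2 was 5.85 and 3.03, Cyba 8.11 and 7.14, Ncf1 1.88 and 1.64, and Ncf4 4.28 and 4.04.

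The other tumor cells were not uniform either. In 3785 cells without lymphoid markers and with a Csf1r count, the receptor of macrophage colony-stimulating factor, Cybb had a mean of 5.63 ± 0.43 (SD over 4 libraries), and in 1740 without one, 2.22 ± 0.33. Cyba had 10.3 and 8.08, Ncf4 3.85 and 3.33, and Rac2 2.43 and 2.04. Ncf1 was in the opposite order, with 0.798 and 1.46. Other markers moved with the gates, since neutrophil markers summed to 28.6 to 55.4 with Csf1r and 69.0 to 111 without it, and dendritic-cell markers to 0.0901 to 0.338 and 2.62 to 4.03. Their part in these differences, and that of the median totals of 8533 and 7514.5 corrected counts, was not tested.

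In 244 tumor cells with B-cell markers, Cybb had a mean over libraries of 2.87 and Rac2 of 4.19, while Cyba had 5.24, Ncf1 0.917 and Ncf4 1.18. Each library weighs the same in these means, though library 2 held 10 such cells and library 5 held 109. Other markers were present in these cells too, with library sums of 1.71 to 29.9 for macrophage and 17.0 to 46.4 for neutrophil markers. In the 86 cells with T-cell or NK-cell markers, Rac2 had 5.39 and was detected in 93.2%, as it is known to be used by lymphocytes as well. Ncf1 had 0.144 in these cells and Ncf4 0.894. Cybb had 0.105, 1.25, 0.172 and 0.269 in libraries 2 to 5, so that its mean of 0.449 was set by library 3, with 12 such cells. Ncf1 had a count in 10.5% of them against 58.5% to 61.0% of neutrophil-like cells.

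In neutrophil-like tumor cells the other genes of the pathway were mostly lower than in the other cells, as were 73% of all genes, while 17.5% of all genes were higher. Of 4 other parts and regulators compared, Rac1 (0.16) was higher in all 4 libraries and 3 were lower, Nrros by a log2 difference of -1.24. Of 7 Rac exchange and binding genes 0 were higher and 5 lower, with the exchange factor Tiam1 at -1.63, and of 6 kinases 0 were higher and 5 lower, with Pak1 at -0.78. Of 5 NADPH supply genes 1 was lower, Idh1 at -1.19, and of 3 genes for superoxide and peroxide removal 2 were lower, Cat at -1.25 and Sod1 at -1.24. In Mo-MF, where 25.4% of all genes were higher and 68.5% lower in the neutrophil-like cells, 3 of 5 complex parts, 6 of 7 Rac genes, 5 of 6 kinases and 4 of 5 supply genes were higher in both libraries. Of 4 genes for superoxide and peroxide handling, 1 was higher, Mpo at 2.42, and 2 were lower, with Cat at -0.76. Mpo had 0.516 in neutrophil-like and 0.00288 in other cells, so it met the level needed only through the neutrophil-like cells. In Mo-MF, Arhgdib differed by 1.58, Pak2 by 0.49 and Taldo1 by 0.92.

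The 5 genes varied together from cell to cell most in the neutrophil-like cells of Mo-MF. There the median Pearson correlation over the 10 gene pairs was 0.279 (0.254 and 0.304 in the 2 libraries). It was 0.122 (0.0739 to 0.162) in neutrophil-like and 0.109 (0.0957 to 0.141) in other tumor cells, 0.0627 in B-MF and 0.0258 in other Mo-MF cells. In B-MF cells with a Csf1r count and no lymphoid markers it was 0.0378, so that the B-MF value rests in part on the few cells left out. The 21 and 20 of them that lacked a Csf1r count and lymphoid markers had summed fibroblast markers of 32.2 to 36.3, against 0.139 to 0.155 in B-MF as a whole. These are descriptions across cells of one library, which share its depth and sparse counts. Median corrected totals were 17446 and 19142 in neutrophil-like and other cultured cells, and 7566 and 8378 in the same classes of the tumor. The part of these totals in the correlations was not tested. No median over pairs of other genes is given here, so the values cannot be read as particular to the oxidase genes.

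Ncf1 and Rac2 were the closest pair in neutrophil-like Mo-MF cells at 0.45, followed by Ncf4 and Rac2 at 0.39, Cybb and Ncf1 at 0.37, and Cybb and Cyba at 0.35. Given the log total of the cell, these pairs had 0.44, 0.37, 0.43 and 0.21 in the same order. By Spearman, Ncf1 and Rac2 had 0.45 and Cybb and Cyba 0.40. The order below the first pair thus depends on the measure. Cyba and Rac2 had -0.19 there and 0.26 in neutrophil-like tumor cells, and given the log total of the cell -0.032 and 0.21. Cybb and Rac2 had 0.27 in neutrophil-like and -0.18 in other Mo-MF cells. In other tumor cells the closest pairs were Cyba and Ncf4 at 0.30 and Cybb and Cyba, the membrane pair, at 0.27. In B-MF, Cyba and Ncf4 at 0.17 were the closest pair.

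**Figure D4:**
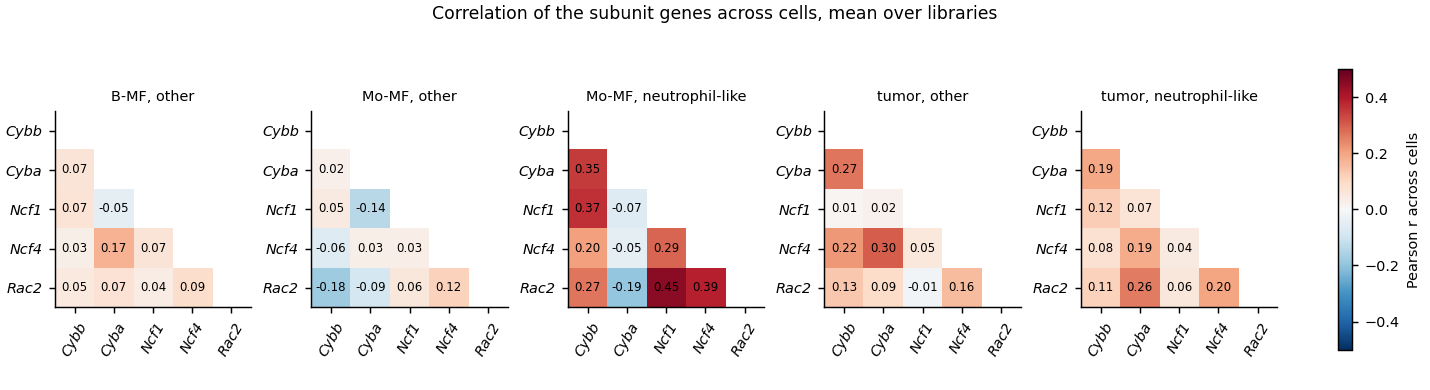
Pearson correlation across cells for each pair of the 5 genes, averaged over the libraries of a group, in 5 panels (B-MF, other and neutrophil-like Mo-MF cells, other and neutrophil-like tumor cells). The panel of neutrophil-like Mo-MF cells holds the highest value, 0.45 for Ncf1 and Rac2, and most pairs in B-MF and in other Mo-MF cells lie near 0.

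A count of all 5 transcripts in the same cell was found in 77.3% and 76.7% of B-MF cells below the limit, 70.0% and 68.4% of other Mo-MF cells, and 91.4% and 91.9% of neutrophil-like Mo-MF cells. The product of the single shares was close to these values, 76.6% and 76.0% in B-MF. In the tumor, 26.4%, 28.4%, 28.1% and 26.4% of other cells and 19.6%, 20.6%, 22.9% and 19.6% of neutrophil-like cells held all 5. The products were 22.6% to 24.2% and 15.9% to 18.3%, below the observed share in each of the 8 cases. Of the 86 T-cell or NK-cell marker cells, 3 held all 5 (3.49%).

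The genes most like each member, by correlation across cells averaged over libraries, differed between the groups. In neutrophil-like Mo-MF cells Cybb was closest to the granule genes Ngp (0.716), Ltf (0.712) and Camp (0.687). These genes also set the granule split above, so the split and this likeness are not separate results for Cybb. In tumor cells Cybb was closest to Lyz2, a lysozyme gene, and Ms4a6c, with 0.547 and 0.524 in other cells and 0.418 and 0.422 in neutrophil-like cells. In other Mo-MF cells it was closest to the inhibitory antibody receptor Fcgr2b (0.415), and in B-MF to the lysosomal lipase Lipa (0.198).

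Cyba was closest to lysosomal genes in cultured cells below the limit, Ctsb (0.511) and Cd68 (0.510) in B-MF and Ctsz (0.555) and Ctsd (0.488) in other Mo-MF cells. In neutrophil-like Mo-MF cells it was closest to Lyz2 (0.595) and to the mitochondrial genes mt-Co3 (0.556) and mt-Co2 (0.540). In other tumor cells Lyz2 led (0.454). Ncf1 reached 0.181 with Picalm and 0.175 with Csf1r in B-MF, and 0.254 with Marcksl1 in other tumor cells. Ncf4 was closest to Fxyd5 in B-MF (0.314) and in other Mo-MF cells (0.235), and to Ifitm2 in other tumor cells (0.486). Rac2 was closest to Alox5ap (0.543), Pglyrp1 (0.532) and Hp (0.529) in neutrophil-like tumor cells, and to its binding protein gene Arhgdib in other tumor cells (0.324) and in neutrophil-like Mo-MF cells (0.621).

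The chromatin of the 5 genes was read from the peak lists of the 12 ATAC-seq libraries. The promoters of 4 of 4 B-cell markers, Pax5 among them, had a peak in all 12 libraries, and of the 7 macrophage markers C1qa, C1qb, C1qc and Mrc1 had one in 0. Cd68 had a promoter peak in all 12, and Adgre1 in 6 of 6 BM and 1 of 6 spleen libraries. The Csf1r promoter had a peak in all 6 BM and in 0 of 6 spleen libraries, irrespective of the CSF1R sort. The neutrophil markers S100a8, S100a9 and Cxcr2 had promoter peaks in 6 of 6 BM and 0 of 6 spleen libraries too, and Csf3r and Retnlg in some BM and 0 spleen libraries. In such bulk samples, fewer cells of a type and less open chromatin per cell cannot be told apart, and the part of those cells in the differences between BM and spleen was not tested.

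A peak lay within 1 kb of an annotated start in all 12 libraries for Cyba, Ncf1, Ncf4 and Rac2. It did so for 82.5% of the 13304 genes with such a peak in at least 3 libraries, not of all annotated genes. Cybb differed: its start had a peak in 0 of 3 BM CSF1R+, 2 of 3 BM CSF1R-, and 6 of 6 spleen libraries. Where called, this peak was weak, with a MACS fold enrichment over local background of 3.57 to 5.03. Around it, 4 other Cybb regions had peaks in all 12 libraries.

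Strength was compared as the percentile of a gene's strongest promoter peak among the peaks of its own library, ranked by fold enrichment, with 0 for no peak. Ncf1 had percentiles of 51.5, 34.0 and 42.2 in BM CSF1R+, 41.7, 38.9 and 41.0 in BM CSF1R-, 62.7, 66.0 and 58.8 in spleen CSF1R+, and 65.8, 62.6 and 54.0 in spleen CSF1R-. All 6 spleen values were above all 6 BM values. The difference of BM minus spleen was -20.1 percentile points (exact permutation test, two-sided, p = 0.00216, the smallest that 924 arrangements allow, adjusted p = 0.00606). In fold enrichment the same peaks had 6.0003 to 7.55 in BM and 10.2 to 14.1 in spleen.

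Rac2 had 66.7 to 75.2 in BM, with a median of 72.1, and 60.6 to 70.4 in spleen, with a median of 65.8. Its difference was 6.43 (exact permutation test, adjusted p = 0.0218), but the ranges overlapped. Ranked among equal-length peak lists it was -7.94, and in fold enrichment -0.95, neither past the threshold, so the direction of Rac2 depends on the scale. Its strongest peak lay inside the gene, about 1 kb from the start, in 5 libraries and at the start in the other 7, so the values come from 2 regions. Cybb was lower in BM by -6.32 (exact permutation test, adjusted p = 0.0280). Genes needed a promoter peak in at least 3 libraries, and Cybb met this only through the spleen libraries, where it is high, so its call supports little.

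The Cybb call was lost with equal-length lists, at -2.45 (exact permutation test, adjusted p = 0.257), and when any of the 3 BM CSF1R+ libraries or BM CSF1R- replicate 2 was left out, with adjusted p (exact permutation test) of 0.0552 to 0.0563. Cyba, at 49.0 to 52.9 in BM and 45.9 to 54.1 in spleen, differed by 0.10 (exact permutation test, adjusted p = 0.950), but was called lower in BM with equal-length lists, at -25.6 (exact permutation test, adjusted p = 0.00812), and in fold enrichment. Ncf4, at 77.0 to 88.9 and 70.6 to 84.1, differed by 3.78 (exact permutation test, adjusted p = 0.248). Thus 1 gene was higher and 2 were lower in BM, where 51.2% of all genes tested were higher and 7.61% lower. Cybb is counted among the lower genes, though it met the filter only through the spleen libraries.

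That background moved with the scale. The BM lists held 65832 to 76530 peaks and the spleen lists 43407 to 50392, so tissue and list length cannot be told apart. By fold enrichment, 18.9% of genes were higher and 36% lower in BM. Cybb at -3.06, Cyba at -1.69 and Ncf1 at -5.42 were then lower in BM (exact permutation test, adjusted p = 0.00654 for Cyba). The limit on the Cybb call given above holds here too. Ncf1 was lower in BM on each of these scales, and with equal-length lists its difference was -50.7 percentile points (exact permutation test, adjusted p = 0.00812). Its call was lost with a window of 5 kb, at -4.62, and with the replicate number as a block, where 0 genes passed and the smallest adjusted p (exact permutation test) was 0.0622. The wider window also takes in other regions, and there Cybb was higher in BM by 23.0 (exact permutation test, adjusted p = 0.00599).

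**Figure D5:**
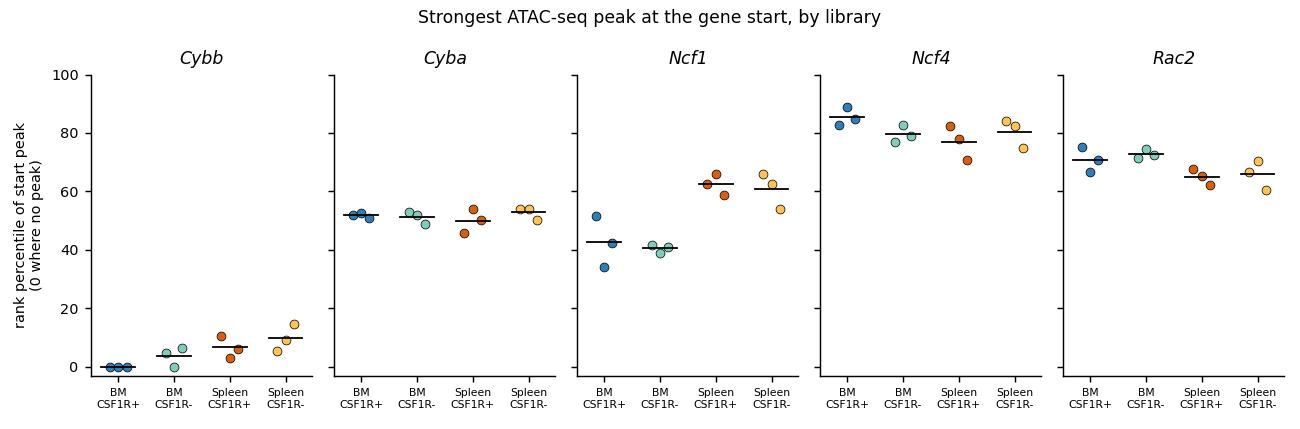
Rank percentile of the strongest promoter peak of each gene within its own peak list, for the 12 ATAC-seq libraries grouped by tissue and CSF1R sort, each point 1 library and each bar a group mean. Ncf1 lies at 34.0 to 51.5 in BM and at 54.0 to 66.0 in spleen, and Cybb lies at 0 in the BM CSF1R+ libraries.

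Between CSF1R+ and CSF1R- cells, arranged within tissue, 0 of 13304 genes passed the exact permutation test after adjustment, and 543 had an unadjusted p under 0.05, or 358 in fold enrichment. None of the 5 genes was among either set. The lowest p was that of Cybb, with a difference of -3.44 percentile points (exact permutation test, p = 0.13, adjusted p = 0.925). At the smallest p of 0.005 that 400 arrangements allow, 1331 genes would be needed for an adjusted p of 0.05. The tested difference is the average of those in BM and spleen, so opposite differences cancel. Ncf4, for example, had means of 85.4 in BM CSF1R+ and 79.6 in BM CSF1R-, but 77.0 and 80.5 in spleen. BM alone was not tested here, and the study reported differences between the sorts in BM and none in spleen.

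The 5 genes with 5 kb upstream of each, promoters included, held 27 of 101333 merged peak regions, and 15 of the 27 had a peak in all 12 libraries, against 30.1% of all regions. The upstream region of Ncf1, at chr5:134232120-134233493 and printed in part above, had a fold enrichment of 7.84 to 10.6 in BM and 4.46 to 5.34 in spleen, the reverse of the Ncf1 start. An upstream region of Cybb, at X:9470755-9471315, had 10.4 to 13.6 in BM and 6.20 to 9.93 in spleen. Another upstream region of Cybb, X:9473775-9474116, went the other way, with a peak in 1 of 6 BM libraries (4.19) and in 6 of 6 spleen libraries (4.36 to 8.33), and so did an intronic one, X:9460293-9460896, in 3 of 6 BM (3.34 to 5.16) and 6 of 6 spleen libraries (5.37 to 12.4). A region inside Ncf1 at chr5:134227008-134227395, which overlaps a coding exon, had a peak in 6 of 6 BM and 0 of 6 spleen libraries, as 11.2% of all regions did. The reverse, a peak in 6 of 6 spleen and 0 of 6 BM libraries, was found in 0 of the 27 and in 2.01% of all regions.

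A region at the 3′ end of Ncf1, chr5:134221504-134222082, was called in 3 of 3 BM CSF1R+ and 0 of 3 BM CSF1R- libraries, a pattern that 0.613% of all regions had. It was also called in 1 of 3 spleen CSF1R+ libraries. The opposite pattern in BM was that of 0 of the 27 and of 0.503% of all regions. In spleen, 0 of the 27 were called in all libraries of one sort and none of the other, against 0.439% of all regions for CSF1R+ and 0.0336% for CSF1R-. All of its 579 bases are exonic and 449 of them are UTR of Ncf1, and it overlaps an exon of Gtf2ird2 as well. It was 1 of the 27 regions and was singled out after the values were seen.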

How the data were processed

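The authors counted scRNA-seq transcripts with Cell Ranger, kept cells with at least 1000 genes, applied SCTransform to the counts, and deposited ln(1 + corrected count), a natural log, for each gene and cell. All values above 0 were whole within a relative tolerance of 1e-06 when converted back, and these counts were averaged over cells per library. Since they are not raw counts, no count model was fitted, and the depth of sequencing is unknown. Doublets were not removed. Means were compared as log2(mean + 0.1) by limma 3.58.1 in R 4.3.3 (genes with a mean of at least 0.1, Benjamini-Hochberg adjustment, calls at 0.05). Which tumor library of the table is which sample of the labels is not given, so the libraries keep the table's numbers.

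For ATAC-seq, the authors trimmed reads with cutadapt, aligned them to mm10 with BWA, removed duplicates and called peaks with MACS2 per library. Each deposited peak has a fold enrichment, a ratio over local background, and no read count, so the depth per library is unknown. Promoter percentiles were compared by exact permutation tests over libraries. The authors also deposited the −log10 of the p and q values that MACS2 gave each peak, which were not used.

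The oxidase genes and gene lists were chosen with earlier results of these data known. Named genes were the 5 oxidase genes, up to 2 genes per pathway list with the largest differences past the threshold, and up to 3 genes of highest correlation with each oxidase gene. Of the complex parts reported, those that passed in cells below the S100 limit were all named. Some genes of the lists are not reported here. The comparison of neutrophil-like with other Mo-MF cells, the granule split, the marker promoters, G6pdx and Pgd were added after values were seen. T-cell and B-cell gates were a summed marker count of at least 3. Replicate numbers were checked for pairing by the correlation of same-numbered deviations. It was 0.125 and 0.126 for the cultures, where 2 pairs are too few. For ATAC-seq it was 0.0282 to 0.265 between the sorts of one tissue, above 0 in each pair. Between the tissues of one sort it was -0.0463 to 0.0276. It was not above 0.1 for every pair, so the libraries were not treated as paired. The test of BM against spleen thus counted same-numbered sorts of one tissue as separate libraries. Its p-values may be too small if those are not independent. The block for that comparison joined the tissues of one sort and number, not the sorts of one tissue. Its 64 arrangements allow no p (exact permutation test) under 0.03125. The tests were tested on simulated data. Alternatives were other pseudocounts, filters, scalings, S100 limits, peak windows and rankings, a block for the replicate number, and leaving out each library. Python 3.11.15, numpy 2.4.6, pandas 2.3.3, scipy 1.17.1 and matplotlib 3.10.9 were used.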

Additional observations from a re-analysis of the deposited data

Results flagged for a closer look

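Cybb is listed here because its difference of neutrophil-like minus other cells had opposite signs in the 2 tables. It was 0.50 ± 0.03 (SD, n = 2) on the log2 scale in Mo-MF, higher in 2 of 2 libraries, and -1.67 ± 0.16 (SD, n = 4) in the tumor, lower in 4 of 4. Without the Mo-MF cells of 1000 or more summed S100a8 and S100a9 counts the Mo-MF value was -0.23, lower in 2 of 2 libraries, so the opposite sign rests on those cells. The difference between the tables was not tested, since the values of each were normalized separately. In 25 groups of library values, tumor means of a gene in a class or promoter percentiles of a gene in a tissue, 0 held a library far from the others.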

How the results depend on the processing

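The depth per library is unknown in both assays, and with 2 libraries per culture a call rests on a spread shared across genes. In the all-cell comparison of B-MF with Mo-MF (limma), 1 of the 5 genes was called with a pseudocount of 0.01 and 4 with the mean of the deposited ln values, where Cybb was higher in B-MF (0.10, adjusted p = 5.68e-05). Below the S100 limit 5 were called with the ln values. With the replicate number as a block, 2 and 3 were called, among 2238 higher and 1670 lower genes over all cells and 2093 and 1777 below the limit. Leaving out 1 library gave 0 to 3 called members over all cells (1103 to 3859 genes higher and 913 to 2934 lower) and 1 to 3 below the limit (1030 to 3604 and 882 to 3246), with Cybb at -0.011 to 0.043. In Mo-MF without cells of 1000 and above, Cybb was at -0.23, Ncf1 at 0.74 and Rac2 at 0.91, and 2 of the 5 genes were lower in the neutrophil-like cells. This setting was chosen after seeing the data. For BM against spleen, fold enrichment gave 2515 genes higher and 4789 lower, equal-length lists 2113 and 3676, and the replicate block 0 and 0, with 0 members called. By fold enrichment Cyba was at -1.69, Ncf4 at -1.87 and Rac2 at -0.95, and with equal-length lists at -25.6, -4.78 and -7.94. Cybb was at 23.0 with the 5 kb window. Without 1 library Cyba was at -0.997 to 0.633 there, and, for CSF1R+ against CSF1R-, Ncf1 at -0.37 to 4.01 and Ncf4 at -0.25 to 2.74. The median correlation of the members by Spearman was 0.0349 in B-MF and 0.232 in neutrophil-like Mo-MF cells, and given the log total 0.0766 in neutrophil-like tumor cells. The cause of these changes was not tested.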
